A study of Papio hamadryas with 17 samples.

Results

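The levels of 7 transcription factors of the nephron, HNF4A, PAX2, PAX8, ESRRG, ESRRA, TFCP2L1 and GATA3, were examined in RNA-seq of baboon kidney cortex biopsies. The members were the 7 genes of these symbols, out of 9819 genes found in the deposited transcript tables of both sexes. The study comprised 17 libraries from 17 baboons (Papio hamadryas), 8 females and 9 males, with 1 library per animal. All animals had eaten a low-salt control chow for life, received no other treatment, and were sedated with ketamine and kept under isoflurane while an ultrasound-guided biopsy of the cortex was frozen in liquid nitrogen; buprenorphine was given for pain after surgery. Females were aged 15 to 19 and males 6 to 13 in the labels, which give no unit. Library names form 1 series for the females and 2 for the males, called series A (5 males) and series B (4 males) here, so sex, age and name series coincide and cannot be told apart. The study asked how gene networks of the kidney cortex differ between the sexes.

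Each nephron segment keeps its identity through a set of transcription factors that bind the regulatory DNA of the segment's own genes. HNF4A is a nuclear receptor that activates transport and metabolic genes of the proximal tubule. PAX2 and PAX8 are paired-box factors that are needed for the formation of the nephron and collecting duct and stay on in many tubule segments of the adult kidney. ESRRA and ESRRG are orphan nuclear receptors that activate genes of mitochondrial energy production, also in heart and skeletal muscle. TFCP2L1 acts in distal tubule and collecting duct cells, and GATA3 in the collecting duct, as well as in T cells. As references for segments, LRP2 (megalin, the endocytic receptor of the proximal tubule), UMOD (uromodulin, secreted by the thick ascending limb) and AQP2 (the vasopressin-regulated water channel of principal cells) were used.

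The measured quantity is called signal: the deposited value per transcript minus the offset of 1, summed over the transcripts of a gene. Whether it was scaled between libraries or by transcript length is not given in the sources used here, so levels are not compared between genes. Per library, the signal summed over the transcripts of both tables was 259197 to 670142 for females and 264577 to 540174 for males; the tables hold no read totals, so the depth behind a value is unknown. Female 1, female 2 and male 6 are rich in skeletal muscle RNA: the summed signal of ACTA1 (skeletal actin) and CKM (muscle creatine kinase) was 71755, 111219 and 54348 in them and 0.95 to 21.9 in the other 14. The rule for the members set these 3 libraries apart, and levels and correlations below are over the other 14, 6 females and 8 males, unless stated. In the 14, UMOD signal was 1669 to 11030 and AQP2 signal 45.2 to 376.4. Of the marker genes of 13 cell types and states tested here, 0 were at 0 in all 14. Proximal tubule markers were low in female 3. Its LRP2 signal was 7.98, beside 7.04 in male 6 and 41.2 or more in the rest of the 14. The summed signal of 10 proximal tubule marker genes was 224 in female 3 and 217 in male 6. In bulk tissue, fewer cells of a type and less RNA per cell cannot be told apart.

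HNF4A lies on sequence NC_018161.2 from 19912774 to 19990204 on the minus strand, with 4 transcripts. It was the factor with the widest spread. HNF4A signal had a lowest value of 6.69, a median of 56.3 and a highest value of 134.1 in the 6 females, and 105.7, 186.3 and 284.7 in the 8 males. By library it was 6.69 in female 3, 53.3 in female 4, 46.5 in female 5, 97.7 in female 6, 134.1 in female 7 and 59.4 in female 8. Female 3 stood far below the rest, and only female 7 reached into the range of the males, above male 1 and male 2. In the males HNF4A signal was 105.7, 121.4, 154.4, 284.7 and 185.4 in males 1 to 5 and 201.8, 187.1 and 240.8 in males 7 to 9. In all, 6 of the 8 males lay above every female.

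HNF4A was the 1 of the 7 factors that differed between the sexes on the deposited scale. In a limma fit over all genes on log2(signal + 1), the female minus male difference of HNF4A was -1.82 (SE 0.47, adjusted p = 0.0065), a level 3.54-fold higher in males. A call was common in this comparison: 38.3% of the 9533 genes tested were called, 36% higher in males and 2.22% higher in females, and the median difference of all genes was -0.35. Relative to that median, HNF4A differed by -1.48. HNF4A stayed called after median scaling of the libraries, at -1.37 (adjusted p = 0.048 by limma), and without female 3, at -1.28 (adjusted p = 0.0017 by limma). It was not called with age as a term (-0.66, SE 1.39, adjusted p = 0.95 by limma, with 0.0105% of all genes called). The ages of the sexes do not overlap, so that fit cannot tell age from sex. HNF4A was also not called against the 5 males of series A alone (-1.68, adjusted p = 0.059 by limma) or over all 17 libraries (-2.45, adjusted p = 0.096 by limma, with 13.6% of all genes called).

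Marker genes of the proximal tubule were also higher in males. Of 10 marker genes of the proximal tubule, 9 were called higher in males and 0 higher in females, and their summed signal was 224 to 4331 in the females and 3962 to 8696 in the males. LRP2 signal itself had a lowest value of 7.98, a median of 60.8 and a highest value of 120.9 in females and 133.7, 206.1 and 294.5 in males, with no overlap, which held for 11.8% of all genes in this direction. Relative to LRP2 within the same library, HNF4A differed less. The log2 ratio of HNF4A to LRP2 was -0.05 ± 0.29 (SD, n = 6) for females and -0.23 ± 0.31 (SD, n = 8) for males, and the difference of 0.18 was smaller than the spread between libraries (exact permutation test, two-sided, p = 0.282; a ratio chosen after the values were seen).

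**Figure D1:**
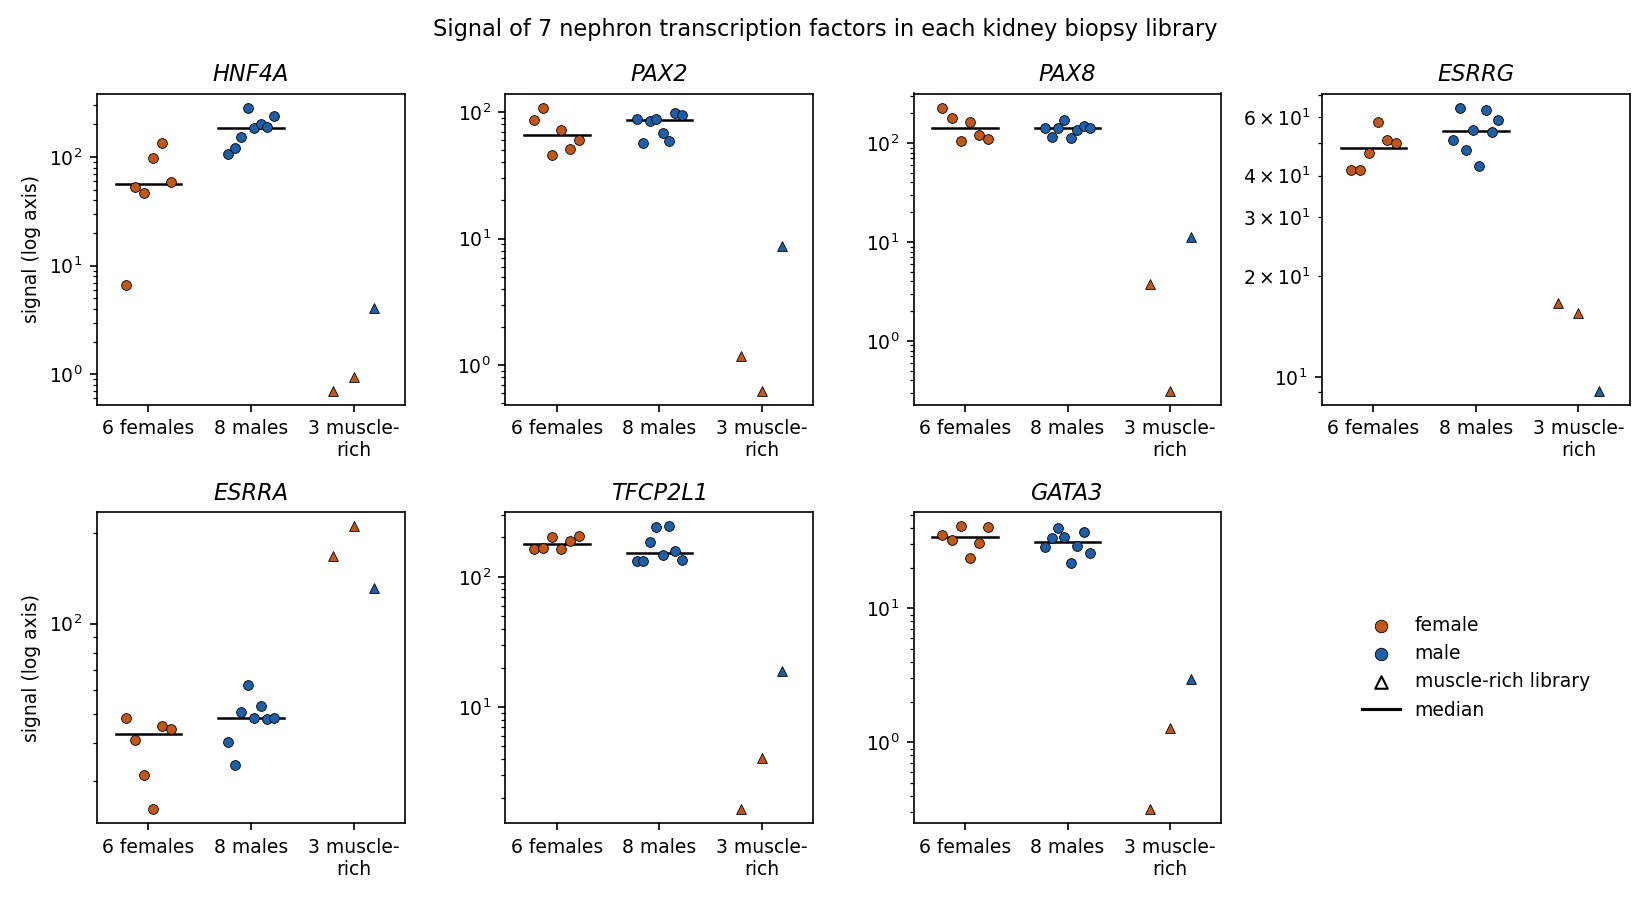
Signal of each factor (vertical log axis, deposited units after subtraction of the offset) in the 6 females, the 8 males and the 3 muscle-rich libraries; each point is 1 library and lines are medians. HNF4A spans 6.69 to 284.7 over the 14 libraries, ESRRG only 41.5 to 64.0, and the muscle-rich libraries lie below the others for every factor except ESRRA, where they lie above.

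PAX2 lies on sequence NC_018160.2 from 92933978 to 93015950 on the plus strand, with 5 transcripts, and PAX8 on NC_018164.2 from 104420352 to 104487290 on the minus strand, with 4. PAX2 signal had a lowest value of 45.5, a median of 66.0 and a highest value of 108.2 in females, and 57.0, 86.0 and 97.6 in males. PAX8 signal had 105.5, 142.3 and 228.3 in females and 112.6, 142.5 and 170.8 in males. The sexes overlapped for both genes, and the 2 highest PAX8 values were both female, female 3 at 228.3 and female 4 at 181.3. The female minus male difference on the log2 scale was -0.21 (SE 0.20, adjusted p = 0.42 by limma) for PAX2 and 0.08 (SE 0.17, adjusted p = 0.75 by limma) for PAX8.

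The level of PAX2 relative to its paralogue PAX8 does not depend on the scaling between libraries. The log2 ratio of PAX2 to PAX8 was -1.10 ± 0.25 (SD, n = 6) for females and -0.81 ± 0.21 (SD, n = 8) for males, a difference of -0.29. The two-sided exact permutation test gave p = 0.0396, and p = 0.119 after adjustment over the 3 ratios tested, which does not pass. The ranges overlapped, -1.40 to -0.74 for females and -1.18 to -0.59 for males. Across the 14 libraries PAX2 and PAX8 had the highest correlation of the 21 pairs of members, with Pearson's r = 0.72 (permutation test, p = 0.0037, adjusted p = 0.078 over the pairs) and Spearman's rho = 0.78 (permutation test, p = 0.0017). It was 0.85 within the 6 females, 0.72 within the 8 males and 0.64 without female 5 and female 7, the libraries farthest from the median of PAX2.

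ESRRG lies on sequence NC_018152.2 from 144655976 to 145302889 on the plus strand, with 9 transcripts in the female table and 8 in both, and ESRRA on NC_018165.2 from 9799253 to 9809615 on the minus strand, with 3. ESRRG was the factor with the narrowest spread. ESRRG signal had a lowest value of 41.5, a median of 48.6 and a highest value of 57.8 in females, and 42.8, 54.3 and 64.0 in males. The SD of log2(signal + 1) of ESRRG over the 14 libraries was 0.20, and 2.63% of all genes tested had a lower SD, whereas for HNF4A it was 1.34, with 98.3% of all genes lower. ESRRA signal had 24.2, 42.8 and 48.4 in females and 33.7, 48.6 and 62.5 in males. The lowest ESRRA value was that of female 6, followed by 31.4 in female 5, and 5 of the 8 males lay above every female. Neither gene was called between the sexes: the log2 difference was -0.17 (SE 0.12, adjusted p = 0.28 by limma) for ESRRG and -0.31 (SE 0.17, adjusted p = 0.16 by limma) for ESRRA. The log2 ratio of ESRRA to ESRRG was -0.32 ± 0.51 (SD, n = 6) for females and -0.18 ± 0.36 (SD, n = 8) for males, a difference of -0.14 that was smaller than the spread between libraries (exact permutation test, two-sided, p = 0.567).

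TFCP2L1 lies on sequence NC_018163.2 from 9698930 to 9768255 on the plus strand, with 1 transcript. TFCP2L1 signal had a lowest value of 162.6, a median of 177.7 and a highest value of 204.9 in females, and 131.8, 152.2 and 244.4 in males. The females lay close together, while 5 of the 8 males lay below every female and 2, male 4 at 242.1 and male 7 at 244.4, above every female. GATA3 lies on NC_018160.2 from 8224110 to 8245578 on the plus strand. It has 3 transcripts in the female table, of which 2 were also in the male table as held here and make up its signal. GATA3 signal had 23.7, 33.8 and 41.1 in females and 21.99, 31.5 and 39.5 in males, with overlap throughout. The log2 difference was 0.12 (SE 0.17, adjusted p = 0.62 by limma) for TFCP2L1 and 0.11 (SE 0.15, adjusted p = 0.58 by limma) for GATA3. The log2 ratio of TFCP2L1 to GATA3 was 2.40 ± 0.22 (SD, n = 6) for females and 2.40 ± 0.39 (SD, n = 8) for males (exact permutation test, two-sided, p = 0.998). For GATA3, which T cells also express, the summed signal of the 2 T cell genes present in both tables, CD2 and IL7R, was 1.29 to 9.55 in females and 1.81 to 6.44 in males, and 1.17 to 1.89 in the muscle-rich libraries.

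Which factors were called depended on the scaling between libraries. After median scaling, which moved the median difference of all genes from -0.35 to 0.03, 3 of the 7 factors were called higher in females, PAX8 at 0.53 (adjusted p = 0.015 by limma), TFCP2L1 at 0.57 (adjusted p = 0.019 by limma) and GATA3 at 0.56 (adjusted p = 0.026 by limma), beside HNF4A, which was called higher in males. Of all genes, 14.5% were then called higher in females and 14.9% higher in males. PAX2, ESRRG and ESRRA were called under neither scaling, and their differences turned from negative to positive with it, to 0.24, 0.28 and 0.14. PAX8, TFCP2L1 and GATA3 had a positive difference on both scales, with a call only after scaling.

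The factors were next set against the 3 segment markers, over the same 14 libraries. These are correlations across libraries of log2(signal + 1), 21 in all for the members, each with a permutation test and an adjusted p over all genes tested with that marker. HNF4A followed LRP2 closely, with r = 0.97 (permutation test, p = 1e-05, the smallest the resamples can give; adjusted p = 0.000288) and rho = 0.95 (permutation test, p = 1e-05; adjusted p = 0.000348). Of all genes, 17.2% were called with a positive r and 2.62% with a negative r for LRP2, and 26 of 9532 genes had a higher r with LRP2 than HNF4A had. The relation held in each sex, with r = 0.98 in the 6 females (exact permutation test, p = 0.0083) and 0.75 in the 8 males (exact permutation test, p = 0.031). After centring within sex r was 0.95 (permutation test, adjusted p = 0.020; 3.62% of all genes called with a positive r), and without female 3 and female 4, the libraries farthest from the median of LRP2, it was 0.93. The males of series A and of series B are 5 and 3 libraries, too few for an r of their own.

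By Pearson's r the other 6 factors were not called with LRP2. ESRRG came nearest, with r = 0.63 (permutation test, p = 0.011, adjusted p = 0.053) and rho = 0.62 (permutation test, adjusted p = 0.055). Its r was 0.79 in females and 0.18 in males. It was 0.53 without female 3 and 0.33 without the 2 libraries farthest from the median of LRP2, so the size of r depended on those libraries. ESRRA had r = 0.22 (permutation test, adjusted p = 0.61) but was called by rho, at 0.63 (permutation test, adjusted p = 0.048). By rho, 3665 of 9532 genes were called with LRP2. The r of ESRRA was -0.51 in females and 0.70 in males. PAX2 had r = 0.00, PAX8 -0.44, TFCP2L1 0.02 and GATA3 -0.36, with adjusted p between 0.26 and 1 by permutation test. Female 3, the library of lowest LRP2 signal, had the highest PAX8 signal of the 14, and without female 3 and female 4 the r of PAX8 with LRP2 was 0.57. After median scaling PAX8 was called with a negative r of -0.74 (permutation test, adjusted p = 0.022; 9.88% of all genes).

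**Figure D2:**
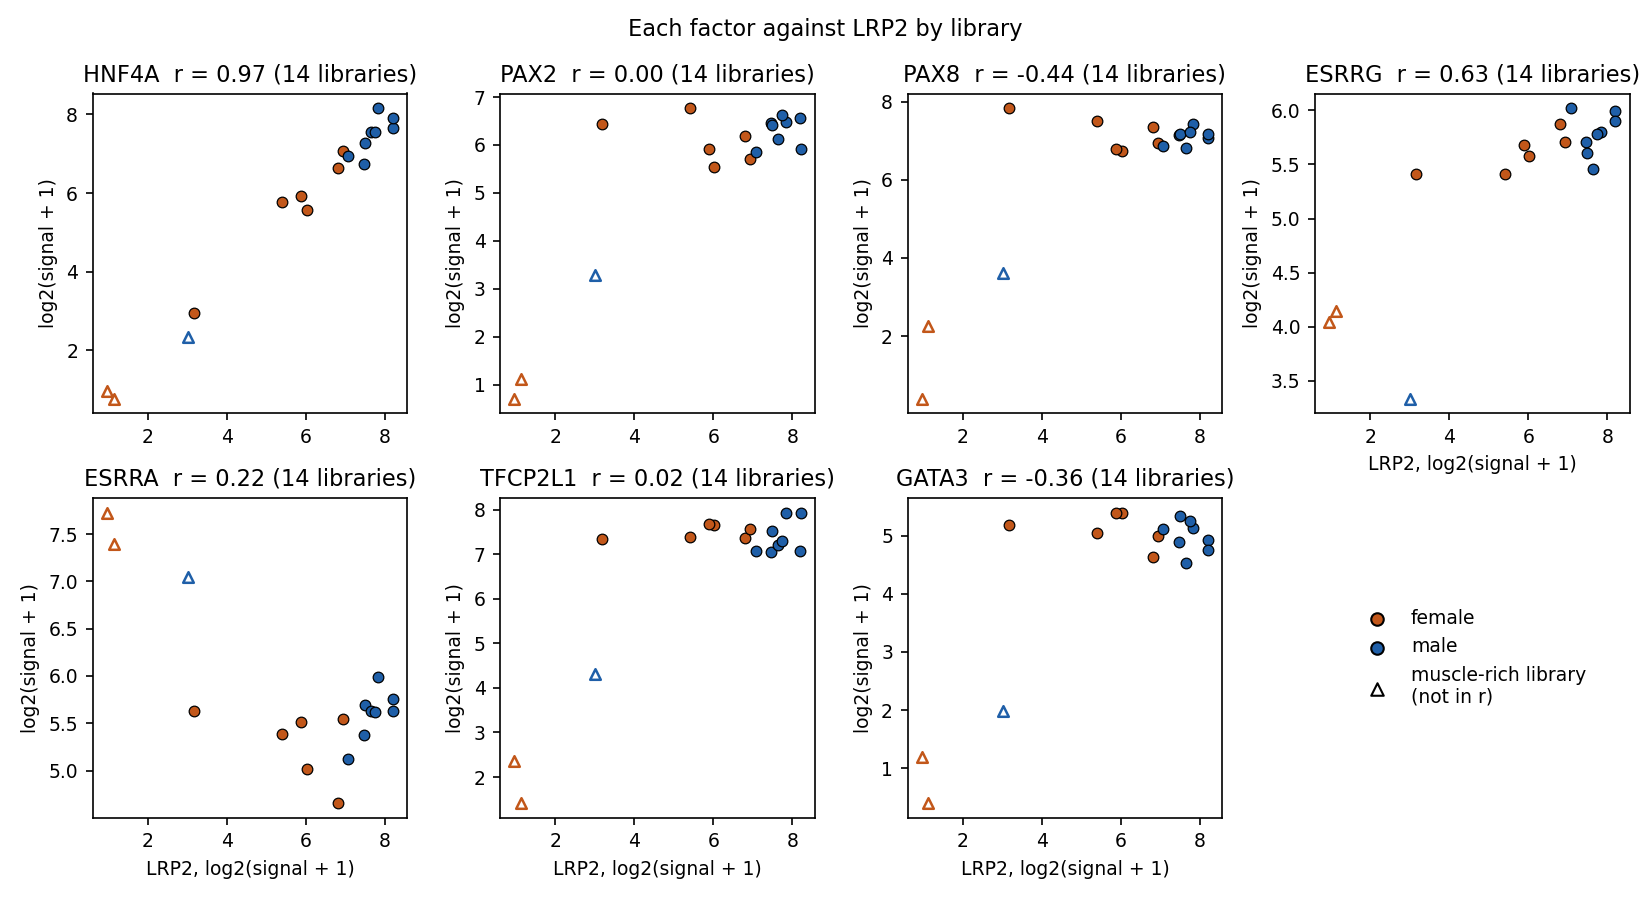
Each factor (vertical axis) against LRP2 (horizontal axis), both as log2(signal + 1), with 1 point per library; filled circles are the 14 libraries used for the printed r and open triangles the 3 muscle-rich libraries, which are not in r. HNF4A lies along a line with LRP2 (r = 0.97). In female 3, the circle at the lowest LRP2, HNF4A and ESRRG have their lowest circle and PAX8 its highest. PAX2, ESRRA, TFCP2L1 and GATA3 lie there within the range of the other circles.

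None of the 7 factors was called with UMOD or with AQP2 in the permutation tests; at an unadjusted p under 0.05 there was 1 for each marker, ESRRG with UMOD and ESRRA with AQP2. For UMOD, 0.724% of all genes were called, and for AQP2 6.22%. At an unadjusted p under 0.05 in the same permutation tests there were 1456 of 9532 genes for UMOD and 3089 for AQP2. The r with UMOD, the thick ascending limb marker, was -0.45 for HNF4A (permutation test, adjusted p = 0.43) and -0.55 for ESRRG (permutation test, p = 0.039, adjusted p = 0.29). PAX2 had 0.31, PAX8 0.16, ESRRA 0.39, TFCP2L1 -0.28 and GATA3 0.23. HNF4A and ESRRG thus had negative r with UMOD in both sexes, -0.71 and -0.86 in the 6 females and -0.54 and -0.43 in the 8 males. After median scaling the r of HNF4A with UMOD was -0.72 and was called (permutation test, adjusted p = 0.036; 1.86% of all genes called with a negative r). The marker LRP2 itself had r = -0.39 with UMOD over the 14 libraries, -0.80 in the 6 females and -0.04 in the 8 males. After median scaling it was -0.68 (permutation test, adjusted p = 0.065).

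AQP2, the marker of principal cells, had its highest r with ESRRA among the members, 0.58 (permutation test, p = 0.033, adjusted p = 0.12). This r was 0.17 without female 6 and female 7, the libraries farthest from the median of AQP2, so its size depended on those libraries. Without male 4 ESRRA was called with AQP2, at r = 0.74 (permutation test, adjusted p = 0.049). TFCP2L1 and GATA3, the 2 factors of the distal nephron and collecting duct, had r of -0.15 and 0.10 with AQP2 (permutation test, adjusted p = 0.75 and 0.84). GATA3 had r = 0.60 in the 6 females and -0.44 in the 8 males. ESRRG had r = -0.97 with AQP2 in the 6 females (exact permutation test, p = 0.0014, not adjusted) and 0.06 in the 8 males. The marker LRP2 had r = -0.84 with AQP2 in the 6 females and 0.26 in the 8 males. A difference of slope between the sexes was tested for every gene and marker as an interaction term in limma, and 0 genes were called for LRP2, UMOD or AQP2, with 2198, 850 and 968 genes at an unadjusted p under 0.05. Among the members, the slope of ESRRA had the lowest unadjusted p of this test, with 0.042 for LRP2 and 0.041 for UMOD (limma, adjusted p = 0.20 and 0.54). With 14 libraries, an r that misses the threshold does not show that a factor and a segment vary apart.

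**Figure D3:**
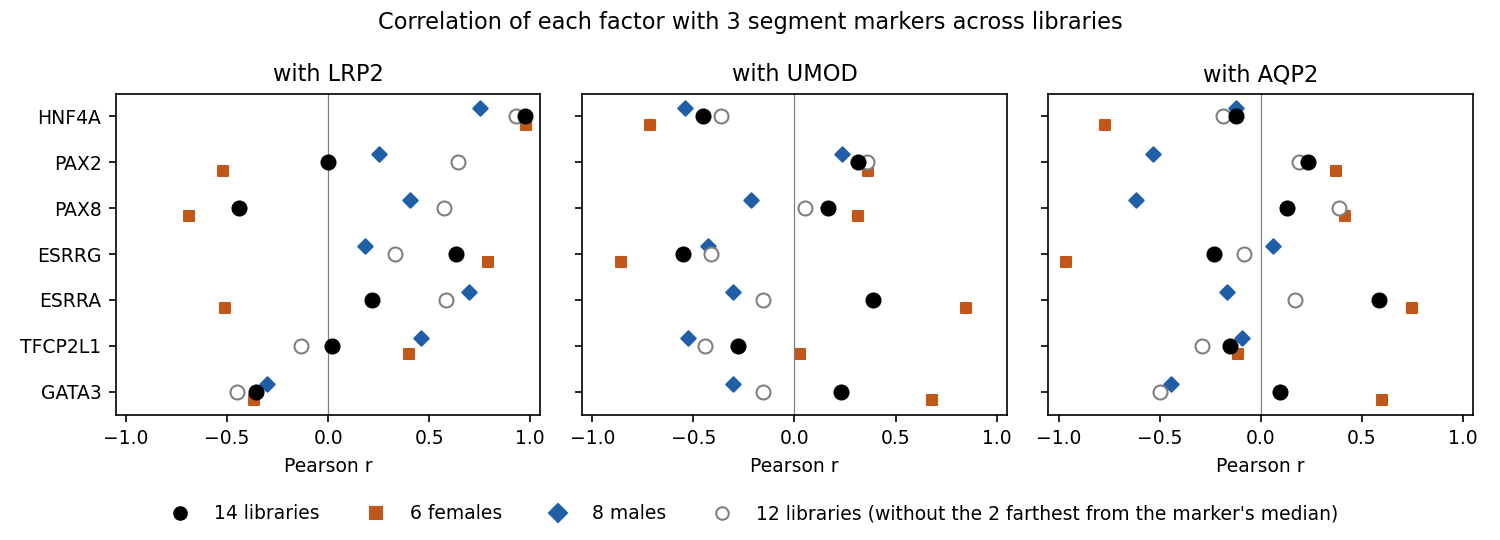
Pearson's r (horizontal axis) of each factor with LRP2, UMOD and AQP2 across the 14 libraries (black), the 6 females (orange squares), the 8 males (blue diamonds) and without the 2 libraries farthest from the marker's median (open circles). For HNF4A with LRP2 all 4 values lie between 0.75 and 0.98, while most others lie on both sides of 0 or move toward it.

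In the 3 muscle-rich libraries, 6 of the 7 factors fell below every other library of their sex and ESRRA lay above. This is a description without a test, because measured values set these libraries apart. Of all genes, 20% lay below and 16.2% above in all 3. HNF4A signal was 0.71 in female 1, 0.95 in female 2 and 4.11 in male 6, which is 1.26%, 1.68% and 2.21% of the median of the other libraries of the same sex. LRP2 kept a like share, 1.95%, 1.56% and 3.42%. PAX2 signal was 1.18, 0.63 and 8.81 (1.79%, 0.96% and 10.2%), and PAX8 signal 3.79, 0.32 and 11.2 (2.66%, 0.22% and 7.83%). TFCP2L1 signal was 1.66, 4.10 and 18.8 (0.93%, 2.31% and 12.3%), and GATA3 signal 0.32, 1.28 and 2.96 (0.94%, 3.77% and 9.41%). The GATA3 transcript of the female table only, XM_009213945.3, is not in these values. It kept more, with 39.2% of its median in female 1 and 9.13% in female 2. Over the transcripts of both tables, male 6 kept the largest share of the 3 for each of these 5 factors. It did so too for LRP2, for UMOD (0.36%, 0.22% and 17.9%) and for AQP2 (1.49%, 2.21% and 16.9%).

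The estrogen-related receptors behaved differently in these libraries. ESRRG signal was 16.7 in female 1, 15.5 in female 2 and 9.10 in male 6, and so kept 34.3%, 32% and 16.7% of the median of its sex. ESRRA signal was 167.8, 210.8 and 131.2, or 392%, 492% and 270% of the median. The highest ESRRA signal among the other libraries was 48.4 in females and 62.5 in males. The log2 ratio of ESRRA to ESRRG was 3.26, 3.68 and 3.71 in the 3 libraries and between -1.22 and 0.22 in the other 14. ESRRA and ESRRG are also factors of skeletal muscle, and the skeletal muscle signal of these libraries is given above; its part in these levels was not tested.

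**Figure D4:**
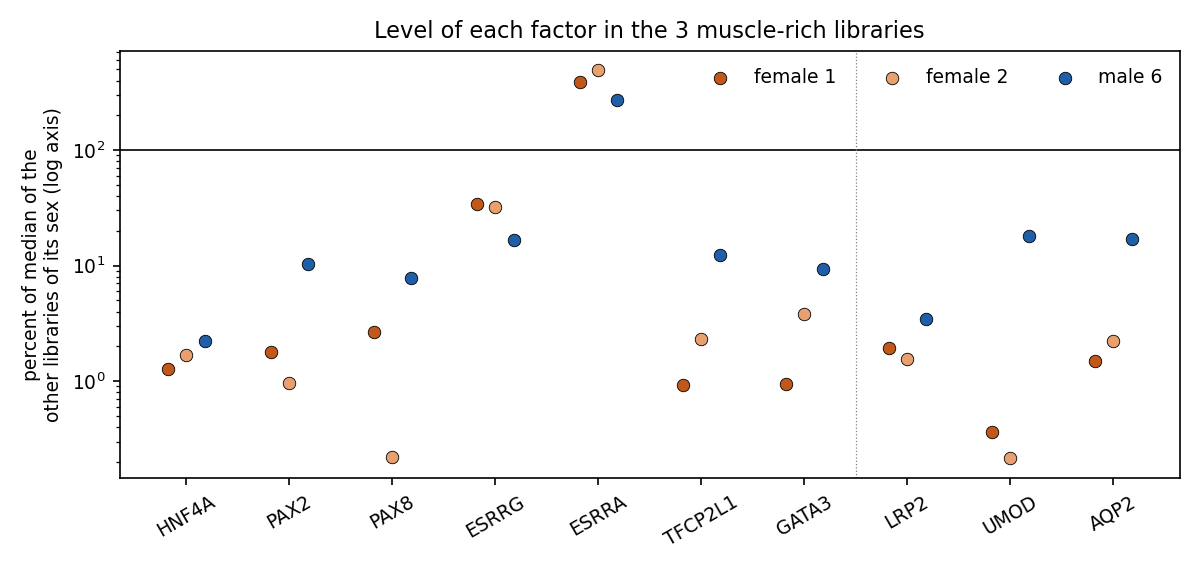
Signal of each factor and of the 3 segment markers in female 1, female 2 and male 6 as a percent of the median of the other libraries of the same sex (vertical log axis; the horizontal line is 100%). ESRRA lies at 270% to 492%, ESRRG at 16.7% to 34.3% and the remaining factors at 12.3% or less.

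In the authors' estimates by transcript, the excess of ESRRA lay in 1 of its 3 transcripts. XM_003909632.3 had a signal of 162.7, 203.2 and 122.6 in female 1, female 2 and male 6, which is 488%, 609% and 316% of the median of the other libraries of the sex. XM_009185731.3 stayed at 72.8%, 109% and 93.9% of the median, at a signal of 5.08 to 7.60. XM_009185732.3 was near 0 in female 1 and female 2 and at 76.3% in male 6. It was also near 0 in female 4 (0.014) and female 6 (0.0011), which are not muscle-rich.

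By transcript, ESRRG signal was divided in a like way in both sexes. Among the 8 transcripts of both tables, XM_009187301.2 held 26.8% ± 5.4 (SD, n = 6) of the ESRRG signal for females and 25.8% ± 4.2 (SD, n = 8) for males, and XM_017949512.1 held 25.7% ± 2.8 (SD, n = 6) and 26.7% ± 5.2 (SD, n = 8). XM_021931516.1 followed with 18.8% ± 3.2 (SD, n = 6) and 17.4% ± 5.6 (SD, n = 8), and XM_003893108.4 with 12.0% ± 2.4 (SD, n = 6) and 10.7% ± 3.4 (SD, n = 8). The other 4 transcripts each held 2.6% to 5.9% on average. The differences between the sexes ranged from -0.93 to 1.33 percentage points over the 8 transcripts, each smaller than the spread between libraries (exact permutation tests, two-sided, p between 0.277 and 0.927).

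The ESRRG transcripts differed in what remained in the muscle-rich libraries. XM_017949512.1 kept 32.2%, 31.3% and 33.4% of the median of its sex in female 1, female 2 and male 6, an even share. XM_009187301.2, which held a like share elsewhere, kept 1.76%, 23.5% and 11.3%. In male 6, XM_017949512.1 held 55.8% of the ESRRG signal, above the 18.7% to 33.2% of the other males. These splits are the authors' estimates from reads that transcripts share. XM_009187308.2 and XM_021931566.1, which start at the same position, stood in a ratio of 1.91 in 15 of the 17 libraries to 3 digits, and at 1.004 in male 1 and 50.7 in female 1.

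HNF4A is transcribed from 2 start sites in the deposited annotation, at 19990204 and 19943845 on the minus strand, 46 kb apart. XM_021921030.1 and XM_021921031.1 start at the upstream site, and XM_017944789.2 and XM_021921029.1 at the downstream site. As for ESRRG, the split between transcripts is the authors' estimate from reads that transcripts share, not a direct measure of start site use. The share of HNF4A signal from the upstream site was 46.7% ± 12.7 (SD, n = 6) for females and 31.1% ± 6.2 (SD, n = 8) for males, a quantity chosen after its values were seen and given with no test. In females it was 34.5%, 55.7%, 44.8%, 67.1%, 43.8% and 34.6% in females 3 to 8. In males it was 29.0%, 43.9%, 25.1%, 27.8% and 24.6% in males 1 to 5 and 32.8%, 32.5% and 33.4% in males 7 to 9. The ranges overlapped, and male 2 lay among the females. In the 3 muscle-rich libraries the 4 transcripts stood in the same fixed proportion, at a total signal of 0.71 to 4.11, and no share is reported for them. The median signal was higher in males for all 4 transcripts, with overlap of the sexes for each. At the downstream site it was 21.4 in females and 93.9 in males for XM_021921029.1, and 9.40 and 37.3 for XM_017944789.2. At the upstream site it was 17.5 and 39.7 for XM_021921030.1, and 9.94 and 15.6 for XM_021921031.1. Signal of XM_021921031.1 spanned 0.98 to 19.6 in females and 8.71 to 26.4 in males. The difference by site was not tested.

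**Figure D5:**
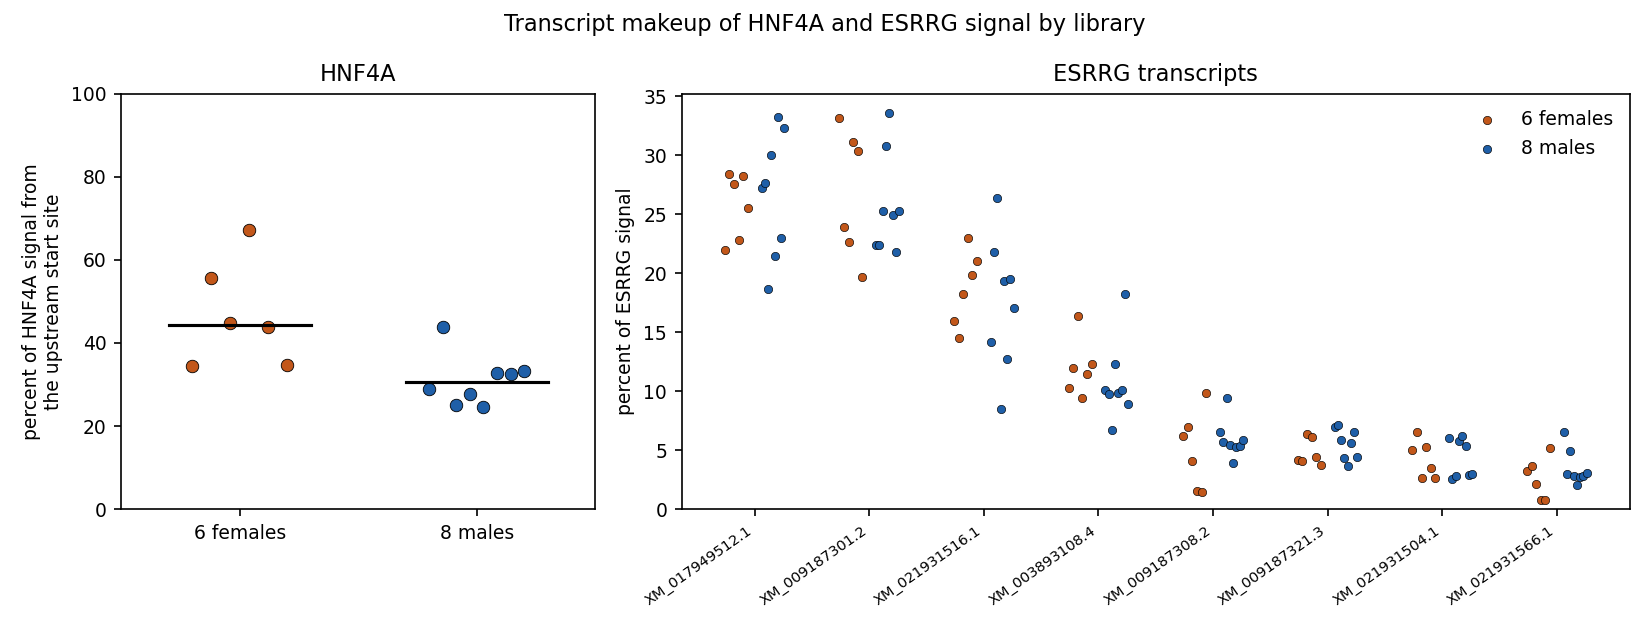
Left, percent of HNF4A signal from the upstream start site in the 6 females and 8 males, with the median as a line; right, percent of ESRRG signal held by each of its 8 shared transcripts, females in orange and males in blue, with 1 point per library. The HNF4A share is 34.5% to 67.1% for females and 24.6% to 43.9% for males, and the ESRRG shares of the sexes overlap for every transcript. Both splits are the authors' estimates from reads that transcripts share.

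A list of 52 other transcription factors of the kidney was compared in the same fits, and 43 were in both tables and tested. Between the sexes 9 were called higher in males and 3 higher in females, 27.9% in all against 38.3% of all genes, with a median log2 difference of -0.17 against -0.35. After median scaling 8 of the 43 were called higher in females and 4 higher in males, where 14.5% and 14.9% of all genes were called. On the deposited scale, those higher in females by limma were FOXD1 (0.91, adjusted p = 0.019), TCF21 (0.73, adjusted p = 0.037) and SOX4 (0.66, adjusted p = 0.046); FOXD1 and TCF21 are factors of kidney stroma, and TCF21 also of podocytes. Those higher in males included MAF (-2.07, adjusted p = 4.7e-05 by limma), the bile acid receptor NR1H4 (-1.21, adjusted p = 0.00042) and the HNF4A paralogue HNF4G (-1.84, adjusted p = 0.00082). The estrogen receptor ESR1 was also higher in males (-1.06, adjusted p = 0.0059 by limma), a call that was lost after median scaling (-0.73, adjusted p = 0.063 by limma).

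With LRP2, 8 of the 43 were called with a positive r and 5 with a negative r in permutation tests, where 17.2% and 2.62% of all genes were called. Those with a positive r included HNF4G with r = 0.96 (permutation test, adjusted p = 0.000288) and the vitamin D receptor VDR with 0.88 (adjusted p = 0.0062). These stand beside the 0.97 of HNF4A. With UMOD 3 were called, all positive, against 0.724% of all genes in either direction: IRX1 with r = 0.93 (permutation test, adjusted p = 0.017), IRX2 with 0.87 (adjusted p = 0.024) and POU3F3 with 0.82 (adjusted p = 0.045); IRX1, IRX2 and POU3F3 are factors of the middle nephron, between proximal and distal tubule. With AQP2, where 6.22% of all genes were called in either direction, 1 of the 43 was called, ELF5, a factor of principal cells, with r = 0.89 (permutation test, adjusted p = 0.041), followed by HOXD8 with 0.72 and the mineralocorticoid receptor NR3C2 with 0.70, which were not called.

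The genes whose pattern was most like that of each factor were taken by Pearson's r of log2(signal + 1), centred within sex, over the 14 libraries, among the 4767 genes at or above the median level. For HNF4A these were SLC39A5, PCK2 and AOC1, each at 0.98. For ESRRA they were AP1B1 at 0.97, CDK16 at 0.96 and ARAF at 0.96, and for PAX8 SHB at 0.94, LOC101012746 at 0.93 and EWSR1 at 0.91. PAX2 was most like ENKD1 at 0.88, RGL2 at 0.86 and HPS1 at 0.85, and ESRRG like NHS at 0.87, TMEM243 at 0.85 and BBX at 0.80. TFCP2L1 was most like ATP6V0B at 0.83, ACTN4 at 0.83 and GPS2 at 0.80, and GATA3 like GPC1 at 0.77, HES4 at 0.77 and ENTPD3 at 0.74. The likeness is a description, and these are the highest r among the 4767 genes at or above the median level. After median scaling the same 3 genes were named for HNF4A, 2 of 3 for PAX2, PAX8, ESRRA and TFCP2L1, 1 of 3 for GATA3 and 0 of 3 for ESRRG.

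The authors' deposited table gives each transcript a colour for its co-expression module, assigned per sex. In the authors' deposited table of females, all 4 HNF4A transcripts and LRP2 had the colour pink, a module of 1064 of 26644 transcripts (3.99%). So did 3 of the 9 ESRRG transcripts and 1 of the 5 PAX2 transcripts. UMOD and AQP2 were tan there, and 3 of 5 PAX2 transcripts, 3 of 4 PAX8 transcripts and TFCP2L1 grey60 (5.78% of transcripts). In the authors' deposited table of males, LRP2 and 2 of 4 HNF4A transcripts were blue (17.7% of transcripts) and the other 2 HNF4A transcripts black. Blue there were also 4 of 8 ESRRG transcripts, 1 of 4 PAX8 transcripts and 1 of 3 AQP2 transcripts. These modules come from the same study and share measurements used above. Whether the 3 muscle-rich libraries entered them was not established here.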

How the data were processed

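RNA was sequenced from stranded mRNA libraries of kidney cortex biopsies, per the labels' protocols. Per the file headers, the deposited tables, 1 for each sex, hold signal by transcript and library and a module colour; the values are not whole numbers and none is under 1, so they are not raw counts. The submitters' processing notes name Partek; for aligner, build and any scaling between libraries or by length: not given in the sources used here. The male table was held in part: its 17119 complete rows are all among the 26644 of the female table, and the rest was not analysed here. Tables were joined by transcript. The gene symbol was taken from the name column, whose 2 fields were swapped for 1167 transcripts, 0 of them of a member. The offset of 1 was subtracted and signal summed per gene over shared transcripts. The genes tested reached a signal of 1 in 6 or more of the 14 libraries, and were tested on log2(signal + 1), which understates changes of low genes. Sex was tested with limma 3.58.1 (R 4.3.3, mean-variance trend), correlations with 100000 permutations (numpy 2.4.6, Python 3.11.15), and ratios and transcript shares with exact permutation tests; p-values of limma and of the marker correlations were adjusted by Benjamini-Hochberg over all genes tested, and those of ratios and member pairs over the 3 ratios and 21 pairs, with a threshold of 0.05. Limma and the permutation test of correlation were run on simulated data with independent noise for each gene. Those data hold no shift shared by all genes, so they do not cover it. The members, lists and markers were chosen with earlier results of these data known. Named genes were the members, the markers, the 3 genes most like each member, and of the other kidney factors the called ones of lowest adjusted p (at most 5 a direction) and the 3 of highest r with each marker; 1 gene this rule names is not reported here. Each animal gave 1 library, so p-values measure the spread between animals. Alternatives were scaling, filter, pseudocount, age, male series, all 17 libraries and leaving out each library.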

Additional observations from a re-analysis of the deposited data

Results flagged for a closer look

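HNF4A in female 3 stood apart from the other 5 females, at a log2(signal + 1) of 2.94 against 5.57 to 7.08, a gap larger than the 95% critical value of Dixon's ratio for a group of 6. The share of HNF4A signal from the upstream start site in male 2, 43.9%, stood apart from the other 7 males in the same way. Chance gives such a gap in about 5% of groups, and 40 groups of values were compared.

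2 transcripts had signal in the female table and are not in the male table as held here, so no comparison of the sexes above uses them. GATA3 XM_009213945.3 had a median signal of 13.7 in the 6 females, with a range of 11.6 to 28.1, against a median of 33.8 for the summed 2 other GATA3 transcripts. It was 5.36 in female 1 and 1.25 in female 2. ESRRG XM_021931684.1 had a median signal of 2.34, with a range of 1.44 to 3.35.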

How the results depend on the processing

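HNF4A was called with LRP2 under every alternative run, with r between 0.93 and 0.98 with 1 library left out and 0.99 at most, and its difference between the sexes kept its direction in every alternative and was not called in the 3 given above (age as a term, males of series A, all 17 libraries). The cause of the changes below was not tested.

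The number of genes called between the sexes, 3648, became 1 with age as a term, 1276 over all 17 libraries, 1917 with the males of series A and 2226 at a minimum signal of 10, where fewer genes are tested. For LRP2, 1889 genes became 3665 with Spearman's rho, 4196 over all 17 libraries and 373 centred within sex. For UMOD, 69 became 39, 4205 and 45, then 349 after median scaling, 364 after upper quartile scaling and 34 at a minimum signal of 10. For AQP2, 593 became 0, 4211 and 0, then 0 after either scaling and 361 at a minimum signal of 10. Leaving out 1 library gave 1413 (without male 9) to 3476 (without female 3) genes for LRP2, 9 (without female 3) to 176 (without male 4) for UMOD and 0 (without female 5, female 8, male 7 or male 9) to 1611 (without male 4) for AQP2.

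All 17 libraries join the 14 with the 3 muscle-rich ones, and 44.6% to 44.7% of all genes were called with each marker there. The r with LRP2 was then 0.84 for PAX2, 0.81 for PAX8, -0.75 for ESRRA and 0.81 for GATA3. With UMOD it was 0.75 for HNF4A, 0.72 for ESRRG, -0.83 for ESRRA and 0.93 for TFCP2L1, and with AQP2 0.77, 0.73, -0.76 and 0.91. The log2 sex difference became -0.997 for PAX8, 0.10 for ESRRA, -0.95 for TFCP2L1 and -0.63 for GATA3, none of them called. The sex differences of the log2 ratios became -0.17 for PAX2 to PAX8, 0.38 for ESRRA to ESRRG and -0.32 for TFCP2L1 to GATA3. The ESRRG share differences became -2.38 points for XM_009187301.2, 2.11 for XM_009187308.2 and 0.11 for XM_021931504.1. Over the 14 libraries with a pseudocount of 0.1, the difference of TFCP2L1 to GATA3 was -0.0022.

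The sex difference of ESRRG was 0.34 with age as a term, and those of PAX2, ESRRG and ESRRA were 0.24, 0.28 and 0.14 after median and 0.23, 0.26 and 0.12 after upper quartile scaling. Spearman's rho was 0.16 for PAX2 and -0.0066 for TFCP2L1 with LRP2, and 0.11 for HNF4A and -0.16 for GATA3 with AQP2. The r of ESRRA with LRP2 was -0.24 centred within sex. After median and upper quartile scaling, r with LRP2 was -0.35 and -0.42 for ESRRA and -0.25 and -0.31 for TFCP2L1. With AQP2 it was -0.18 and -0.092 for PAX2, -0.18 and -0.11 for PAX8, and -0.061 and -0.0026 for GATA3.

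Leaving out 1 library in turn, the ratio of PAX2 to PAX8 differed by -0.36 to -0.23, that of ESRRA to ESRRG by -0.25 to 0.042, and that of TFCP2L1 to GATA3 by -0.067 to 0.089. The share of XM_009187301.2 differed by -0.29 to 2.40 points and that of XM_021931504.1 by -0.51 to 0.26, and the sex difference of PAX8 by -0.049 to 0.17. The r with LRP2 ranged from -0.11 to 0.21 for PAX2, -0.56 to 0.12 for PAX8 and -0.15 to 0.13 for TFCP2L1. With UMOD it ranged from -0.17 to 0.37 for PAX8, -0.079 to 0.66 for ESRRA and -0.066 to 0.32 for GATA3, and with AQP2 from -0.20 to 0.29 for HNF4A, -0.13 to 0.42 for PAX8 and -0.39 to 0.26 for GATA3. ESRRG was called with LRP2 without female 6, male 2 or male 5, or at a minimum signal of 10. No paired analysis was possible because replicate numbers were given in accession order and do not tie a female to a male. The depth behind each value is unknown.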
